A study of Mus musculus with 10 samples.

Results

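Immediate-early transcription factors were examined in splenic CD11c+ dendritic cells (DCs), the cells that present antigen to T cells in the spleen. The set was fixed by name and holds 10 genes of 22180 with a usable probe set: Fos, Fosb, Jun, Junb, Egr1, Egr2, Nr4a1, Nr4a2, Nr4a3 and Btg2. Each had 1 probe set that carried its symbol alone, and each lay above the array median in all 10 arrays.

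The DCs came from mice lacking both anaphylatoxin receptors (C3ar1-/-C5ar1-/-, called DKO here) and from wild-type (WT) mice. Cells were isolated with anti-CD11c magnetic beads 4 h after an injection of 100 µg CpG, an unmethylated DNA that Tlr9 recognises, or of vehicle, and the vehicle groups are called unstimulated. There were 3 DKO CpG, 2 DKO unstimulated, 3 WT CpG and 2 WT unstimulated arrays, all Affymetrix Mouse Gene 2.0 ST. The labels used here state no sex, age or strain, nor how the deletions were made or whether an array holds 1 mouse or a pool. The p-values therefore measure only the spread between arrays, which may be technical.

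Immediate-early genes are transcribed within minutes of a stimulus without new protein synthesis, because their regulators, such as serum response factor and CREB, already sit in the cell and are switched on by kinases. Their messages decay fast, so the level at a given time reflects recent signalling. In DCs they are known both as early targets of Toll-like receptor signalling and as genes that tissue dissociation induces. Fos and Jun proteins pair to form the transcription factor AP-1. Egr proteins bind GC-rich DNA through zinc fingers, Nr4a proteins are orphan nuclear receptors, and Btg2 is an antiproliferative partner of the deadenylation machinery that binds no DNA itself.

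The stretch around the gene start is shown for 4 members that were lower after CpG in both genotypes, since these carry the clearest falls reported here. RefSeq windows of 300 bases, reaching from 250 bases before the start, were found for 9 of the 10 members (build GRCm38.p6), and Egr1 is named only. Capitals mark letters matched on either strand to the CRE half-site TGACG, which every full CRE (TGACGTCA) contains, to the Egr site GCGNGGGCG or to the CArG box that serum response factor binds. Fosb lies at chr7:19309996-19310295, Nr4a2 at chr2:57123954-57124253 and Btg2 at chr1:134079106-134079405, all on the minus strand, and the Egr2 window shown, 1 of 5 listed, at chr10:67537619-67537918 on the plus strand. Each is written 5′ to 3′ along its gene.
Fosb: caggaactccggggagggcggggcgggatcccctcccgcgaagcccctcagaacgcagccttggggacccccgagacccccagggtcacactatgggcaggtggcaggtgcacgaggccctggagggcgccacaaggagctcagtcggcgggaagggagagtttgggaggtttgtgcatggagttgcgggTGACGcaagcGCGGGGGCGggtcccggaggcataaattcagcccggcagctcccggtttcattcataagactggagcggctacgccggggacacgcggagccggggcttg
Nr4a2: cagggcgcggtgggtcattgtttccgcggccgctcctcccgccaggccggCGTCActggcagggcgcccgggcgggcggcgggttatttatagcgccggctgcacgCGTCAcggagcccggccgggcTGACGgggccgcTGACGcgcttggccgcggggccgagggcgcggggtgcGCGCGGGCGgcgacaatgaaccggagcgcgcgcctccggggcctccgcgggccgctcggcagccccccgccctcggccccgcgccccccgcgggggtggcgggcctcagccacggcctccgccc
Btg2: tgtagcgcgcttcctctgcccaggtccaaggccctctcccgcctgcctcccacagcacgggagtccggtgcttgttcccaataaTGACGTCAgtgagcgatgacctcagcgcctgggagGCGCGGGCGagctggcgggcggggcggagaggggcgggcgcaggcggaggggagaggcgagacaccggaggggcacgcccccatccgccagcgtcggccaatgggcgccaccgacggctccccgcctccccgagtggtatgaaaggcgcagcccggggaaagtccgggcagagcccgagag
Egr2: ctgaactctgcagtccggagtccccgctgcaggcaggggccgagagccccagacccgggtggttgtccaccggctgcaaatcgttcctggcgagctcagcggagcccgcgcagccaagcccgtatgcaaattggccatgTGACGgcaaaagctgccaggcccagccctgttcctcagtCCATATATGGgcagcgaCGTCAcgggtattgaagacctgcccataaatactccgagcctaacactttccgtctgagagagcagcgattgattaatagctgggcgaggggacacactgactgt

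The full CRE was found in 1 of the 9 members with a window, Btg2, where it begins 166 bases before the start, against 1.79% of all 32851 windows. The half-site TGACG stood in 8 of the 9, all but Jun, against 20.8% of all windows. The Egr site stood in 4, namely Fosb, Nr4a1, Nr4a2 and Btg2 (5.55% of all windows), and the CArG box in Egr2 only (1.63%). Sites more than 250 bases before the start were not searched, nor was Egr1, so a motif not found here may lie farther upstream. Neither the AP-1 site TGACTCA (5.20% of all windows) nor the Nr4a site AAAGGTCA (1.51%) was matched in any member's window. The members' windows were GC-rich, at 56.0% to 81.7%, against a median of 52.7% over all windows, which bears on motifs that contain CG. Junb and Nr4a3, the members that did not fall after CpG, held the half-site as well. Egr2 was counted as holding a motif if any of its 5 windows did.

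Before the results, the arrays themselves need a description. Itgax, which encodes CD11c, measured 10.72 to 11.59 in the CpG arrays and 11.575 to 11.89 in the unstimulated arrays on the log2 scale. Flt3, a DC growth-factor receptor, measured 9.79 to 10.31 in the CpG arrays and 10.33 to 10.59 in the unstimulated arrays. Array medians were 5.50 to 5.56. Y-linked genes gave signal in 3 arrays, all DKO (CpG replicates 1 and 2 and unstimulated replicate 1), and not in the other 7. The X-linked Xist measured 4.32 to 4.91 in these 3 arrays and 10.4 to 10.8 in the other 7. Sex-linked signal thus differed within the DKO groups and between DKO and WT. Array titles fell into 2 number ranges, and WT CpG 3, DKO unstimulated 2 and DKO CpG 3 had titles of 20 and over. Neutrophil markers (12 genes, each centred on its mean) averaged -1.53 to 0.10 in the 5 DKO arrays and 0.05 to 1.88 in the 5 WT arrays. That of 12 splenic macrophage markers was -1.30 and -1.32 in DKO unstimulated 2 and DKO CpG 3 and between 0.16 and 0.47 in the other 8 arrays. C3ar1 and C5ar1 were lower in all 5 DKO arrays, at 5.27 to 5.64 and 4.42 to 4.99, against 5.80 to 6.59 and 5.51 to 7.32 in the 5 WT arrays. Whether the probes lie in the deleted parts is not stated, so these values do not check the genotype.

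Most of the 10 genes were lower after CpG. In DKO DCs 5 fell, none rose and 5 did not pass, and in WT DCs 6 fell, none rose and 4 did not pass. Fos, Fosb, Egr2, Nr4a2 and Btg2 fell in both genotypes, and Jun passed in WT DCs. Over all 13371 genes tested with limma, 5.76% fell after CpG in DKO DCs and 13.3% in WT DCs (adjusted p under 0.05, Benjamini-Hochberg over all genes tested). The median log2 change of the 10 genes was -0.45 in DKO DCs and -0.59 in WT DCs, against -0.04 over all genes tested in either genotype. In all, 10.3% of genes were called in DKO DCs and 21.6% in WT DCs. The CpG and unstimulated arrays did not overlap for 8 of the 10 genes in DKO DCs (37.7% of all genes) and 9 of 10 in WT DCs (52.4%). Averaged over the genotypes 8 fell, all but Junb and Nr4a3, where 29.8% of all genes were called, 18.6% lower and 11.2% higher. In those 8 every CpG array lay below every unstimulated array, and 20.2% of all genes had no such overlap in either direction. Whether fewer cells of a type or less RNA per cell lies behind a lower value cannot be told apart in such bulk samples. Cell type markers moved with CpG too: the centred mean of 5 measured cDC1 markers was -0.64 to -0.37 in the 6 CpG arrays and 0.39 to 0.79 in the 4 unstimulated arrays. For 5 cDC2 markers it was -0.36 to 0.09 and 0.17 to 0.52, and for 6 B cell markers -0.56 to 0.12 and 0.22 to 0.50. Lists for conventional DCs, plasmacytoid DCs, monocytes, neutrophils, splenic macrophages, T cells and NK cells overlapped between CpG and unstimulated arrays when the genotypes were pooled. Within each genotype, however, the conventional DC list was lower in every CpG array. Its centred mean was -0.15 to 0.13 against 0.21 to 0.34 in DKO, and -0.33 to -0.14 against 0.02 to 0.17 in WT. The monocyte list was lower in every WT CpG array and overlapped in DKO. Batf3, itself among the cDC1 markers, rose in WT DCs (0.61 ± 0.16). The part of cell types in the lower values was not tested.

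**Figure D1:**
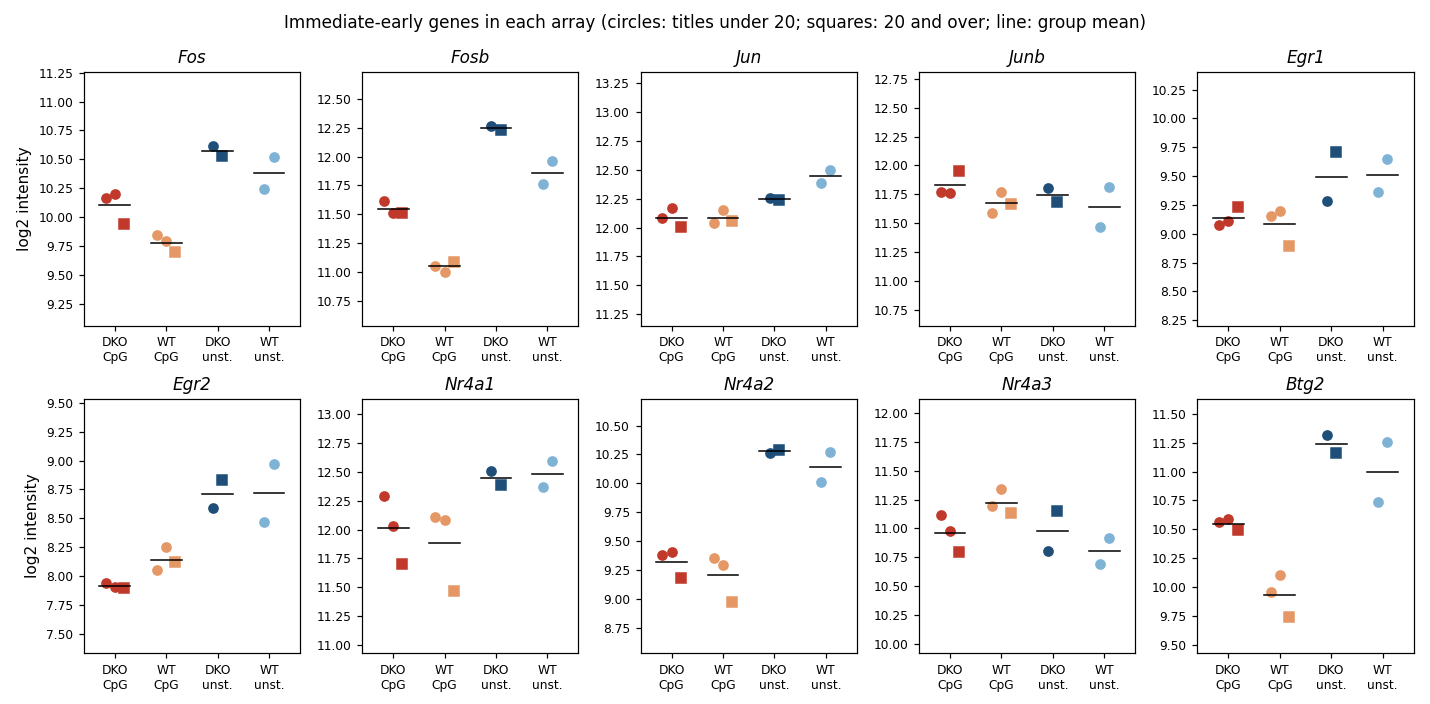
Log2 intensity of the 10 genes (vertical axis) in each array, by group, with circles for titles under 20, squares for titles of 20 and over and a line at the group mean. All panels span the same range of log2 units, and in 8 panels all 6 CpG arrays lie below all 4 unstimulated arrays.

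The Fos family came first among the AP-1 genes. Fosb, a partner of Jun proteins with a short-lived message, measured 11.62, 11.51 and 11.51 in the DKO CpG arrays and 12.26 and 12.23 in the DKO unstimulated arrays. In WT it was 11.05, 11.003 and 11.09 with CpG, against 11.76 and 11.96 without. The 4 groups did not overlap at all, and the order from high to low was DKO unstimulated, WT unstimulated, DKO CpG and WT CpG. The log2 change with CpG was -0.70 ± 0.11 in DKO DCs (SE, limma adjusted p = 0.00404) and -0.81 ± 0.11 in WT DCs (limma adjusted p = 0.000677), that is 0.615 and 0.569 of the unstimulated level. The fall passed without any 1 of the 10 arrays in both genotypes.

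Fos, the founding member of the family and a classical serum response gene, measured 10.16, 10.20 and 9.94 in the DKO CpG arrays and 10.62 and 10.52 in the DKO unstimulated arrays. WT CpG arrays gave 9.84, 9.79 and 9.70, and WT unstimulated arrays gave 10.24 and 10.52. CpG and unstimulated arrays were apart in each genotype, while the unstimulated groups came as close as 10.52 and 10.52. The change was -0.47 ± 0.13 in DKO DCs (limma adjusted p = 0.0466) and -0.61 ± 0.13 in WT DCs (limma adjusted p = 0.00811). The DKO call sat at the threshold and ended when any 1 of the 10 arrays was left out (adjusted p = 0.0512 to 0.182), and the WT call ended without WT unstimulated 2 (adjusted p = 0.0987). Averaged over the genotypes Fos fell by 0.54 ± 0.09 (limma adjusted p = 0.00160) and passed when any 1 array was left out.

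Among the Jun genes the changes were smaller. Jun, the main partner of Fos in AP-1, measured 12.08, 12.17 and 12.001 in the DKO CpG arrays and 12.25 and 12.24 in the DKO unstimulated arrays. In WT the values were 12.04, 12.15 and 12.06 after CpG, against 12.39 and 12.50. CpG arrays were below the unstimulated ones in both genotypes, by little in DKO. The change was -0.16 ± 0.11 in DKO DCs, which did not pass (limma adjusted p = 0.400), and -0.36 ± 0.11 in WT DCs (limma adjusted p = 0.0387). The WT call ended without any 1 of the 5 WT arrays (adjusted p = 0.0582 to 0.224), without a filter on low values (0.0681) and with the title range as a block (0.0540). Averaged over the genotypes Jun fell by 0.26 ± 0.08 (limma adjusted p = 0.0257), which ended without DKO unstimulated 1 or 2, WT CpG 1 or 3 or WT unstimulated 2 (adjusted p = 0.0518 to 0.0983).

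Junb, an AP-1 subunit that can oppose Jun, did not separate the groups. It measured 11.77, 11.76 and 11.95 in the DKO CpG arrays and 11.80 and 11.68 in the DKO unstimulated arrays, against 11.58, 11.77 and 11.66 in the WT CpG arrays and 11.47 and 11.81 in the WT unstimulated arrays. All 4 groups overlapped. The log2 change was 0.09 ± 0.13 in DKO DCs (95% interval -0.21 to 0.38) and 0.03 ± 0.13 in WT DCs (95% interval -0.26 to 0.33), so changes of the size seen for Fosb lay outside both intervals.

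The Egr genes were also lower after CpG, Egr2 more clearly than Egr1. Egr2, a zinc-finger factor that restrains activation in lymphocytes, measured 7.94, 7.91 and 7.89 in the DKO CpG arrays and 8.59 and 8.83 in the DKO unstimulated arrays. WT arrays gave 8.05, 8.25 and 8.12 with CpG and 8.47 and 8.97 without. The 3 DKO CpG arrays lay close together and below every other array. Egr2 fell by 0.79 ± 0.15 in DKO DCs (limma adjusted p = 0.0106) and by 0.58 ± 0.15 in WT DCs (limma adjusted p = 0.0218). The DKO call ended without DKO unstimulated 2 (adjusted p = 0.0946), and the WT call without WT unstimulated 2 (-0.33, adjusted p = 0.233), WT CpG 1 (adjusted p = 0.0709) or WT CpG 3 (adjusted p = 0.0550).

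Egr1, the serum-inducible member of the family, measured 9.07, 9.11 and 9.24 in the DKO CpG arrays and 9.28 and 9.71 in the DKO unstimulated arrays. The WT values were 9.16, 9.20 and 8.90 after CpG and 9.36 and 9.65 without. The groups did not overlap within a genotype, but the 2 unstimulated arrays of each genotype were farther apart than the nearest CpG and unstimulated arrays. The change was -0.36 ± 0.16 in DKO DCs (limma adjusted p = 0.195) and -0.42 ± 0.16 in WT DCs (limma adjusted p = 0.0896), and neither passed, although the WT change did with the macrophage marker level as a covariate (-0.43, adjusted p = 0.0415). Single arrays moved these values: the DKO change was -0.14 without DKO unstimulated 2 (adjusted p = 0.730) and -0.57 without DKO unstimulated 1 (adjusted p = 0.0955), and the WT change was -0.28 without WT unstimulated 2 (adjusted p = 0.450). Averaged over the genotypes Egr1 fell by 0.39 ± 0.11 (limma adjusted p = 0.0244). That call ended without WT unstimulated 2, DKO unstimulated 2, WT CpG 3 or DKO CpG 1 (adjusted p = 0.0501 to 0.110).

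The 3 Nr4a receptors, which act without a known hormone ligand, differed in their response. Nr4a2 measured 9.38, 9.41 and 9.18 in the DKO CpG arrays and 10.27 and 10.29 in the DKO unstimulated arrays, against 9.35, 9.30 and 8.97 in the WT CpG arrays and 10.02 and 10.27 in the WT unstimulated arrays. Its CpG arrays lay far below its unstimulated arrays, and the genotypes overlapped in each state. Nr4a2 fell by 0.96 ± 0.15 in DKO DCs (limma adjusted p = 0.00358) and by 0.94 ± 0.15 in WT DCs (limma adjusted p = 0.00144), to 0.515 and 0.522 of the unstimulated level. The fall passed without any 1 of the 10 arrays in both genotypes.

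Nr4a1 measured 12.29, 12.03 and 11.70 in the DKO CpG arrays and 12.51 and 12.39 in the DKO unstimulated arrays. In WT it was 12.11, 12.09 and 11.47 after CpG, against 12.37 and 12.59 without. The lowest array of each CpG group was the one with a title of 20 or over, DKO CpG 3 and WT CpG 3. Heat-shock genes were low in the same arrays: the centred mean of 16 of them was -0.50 in DKO CpG 3 and -0.42 in WT CpG 3, -0.13 in DKO unstimulated 2, the other array of that title range, and 0.07 to 0.24 in the other 7. Hmox1 belongs both to this list and to the splenic macrophage list, which was low in DKO CpG 3 and DKO unstimulated 2 but not in WT CpG 3. The part of heat-shock signal in the Nr4a1 values was not tested. The change was -0.44 ± 0.22 in DKO DCs (limma adjusted p = 0.242) and -0.59 ± 0.22 in WT DCs (limma adjusted p = 0.0784), and neither passed. The DKO change was -0.29 without DKO CpG 3 (adjusted p = 0.437), and the WT change was -0.38 without WT CpG 3 (adjusted p = 0.205). With the title range as a block the DKO change passed, at -0.51 (adjusted p = 0.0450). The WT change passed with array weights (-0.54, adjusted p = 0.0461) and with Y-linked signal in the fit (-0.61, adjusted p = 0.0394). With neutrophil markers in the fit both passed, at -0.67 in DKO DCs (adjusted p = 0.0103) and -0.85 in WT DCs (adjusted p = 0.00135).

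Averaged over the genotypes Nr4a1 fell by 0.52 ± 0.15 (limma adjusted p = 0.0270). That call ended without WT unstimulated 1 or 2 or DKO unstimulated 1 or 2 (adjusted p = 0.0509 to 0.105). The WT change of Nr4a1 passed without DKO CpG 3 (adjusted p = 0.0486), an array that is not among those compared and leaves the change itself at -0.59.

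Nr4a3 was the exception. It measured 11.12, 10.98 and 10.79 in the DKO CpG arrays and 10.80 and 11.16 in the DKO unstimulated arrays, against 11.19, 11.35 and 11.13 in the WT CpG arrays and 10.70 and 10.92 in the WT unstimulated arrays. In DKO the CpG arrays lay within or just below the unstimulated range, while in WT all 3 CpG arrays were above both unstimulated ones. The change was -0.02 ± 0.15 in DKO DCs (limma adjusted p = 0.967) and 0.42 ± 0.15 in WT DCs, which did not pass (limma adjusted p = 0.0774). The WT change was past the threshold in the fit with trend and robust variances (adjusted p = 0.0473), with array weights (adjusted p = 0.0305) in the 2 WT groups fitted alone (adjusted p = 0.0433) and with titles under 20 alone (0.46, adjusted p = 0.0411). The CpG effect in DKO minus that in WT was -0.43 ± 0.21 (95% interval -0.90 to 0.04, limma adjusted p = 0.887), so a difference between genotypes was not shown. Without DKO unstimulated 2 it was -0.25.

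Btg2, a p53- and mitogen-inducible inhibitor of proliferation, measured 10.56, 10.59 and 10.49 in the DKO CpG arrays and 11.31 and 11.16 in the DKO unstimulated arrays. The WT CpG arrays gave 9.95, 10.11 and 9.74 and the WT unstimulated arrays 10.73 and 11.25. CpG arrays were lower in both genotypes, and after CpG the DKO arrays were all above the WT arrays. Btg2 fell by 0.69 ± 0.16 in DKO DCs (limma adjusted p = 0.0258) and by 1.06 ± 0.16 in WT DCs (limma adjusted p = 0.00139), to 0.621 and 0.480 of the unstimulated level. The DKO call ended without DKO unstimulated 1 (adjusted p = 0.131), DKO unstimulated 2 (adjusted p = 0.0899), DKO CpG 1 (adjusted p = 0.0665) or DKO CpG 2 (adjusted p = 0.0542), whereas the WT call passed without any 1 array.

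**Figure D2:**
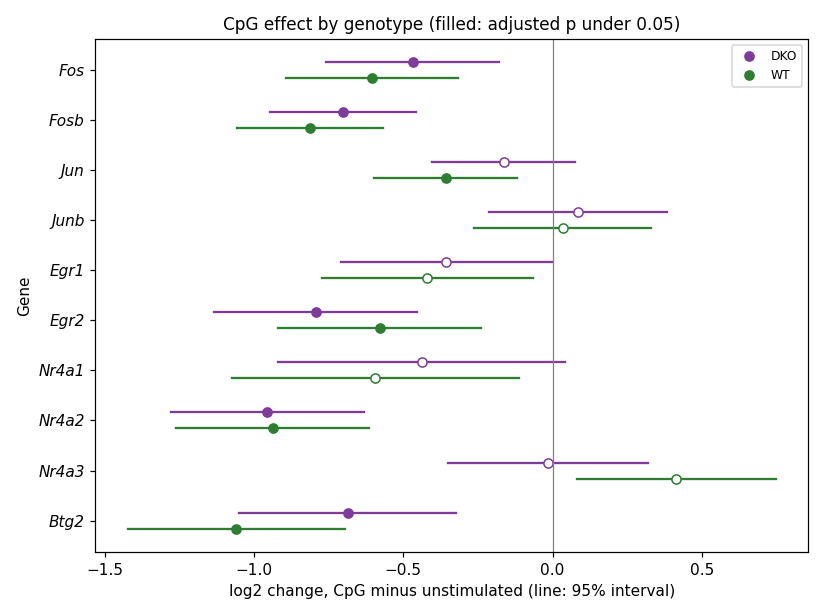
Log2 change with CpG (horizontal axis, CpG minus unstimulated) of each gene in DKO and WT DCs, as the fitted value with its 95% interval, filled where the adjusted p is under 0.05. Both genotypes lie left of 0 for 8 genes, Junb lies at 0, and Nr4a3 lies at -0.02 in DKO and 0.42 in WT.

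Whether the receptors alter these genes was asked by setting DKO against WT. After CpG 3 of the 10 (Fos, Fosb and Btg2) had an unadjusted limma p under 0.05, as had 1918 of all 13371 genes tested. None of the 10 passed with limma, where 0.120% of all genes tested were called (0.0524% higher and 0.0673% lower in DKO). Fosb came nearest, 0.50 ± 0.10 higher in DKO DCs (limma adjusted p = 0.0679), followed by Btg2, 0.62 ± 0.15 higher (limma adjusted p = 0.0968), and Fos, 0.33 ± 0.12 higher (limma adjusted p = 0.243). In all 3, every DKO CpG array was above every WT CpG array. Egr2 and Nr4a3 were lower in every DKO CpG array than in every WT CpG array, by 0.23 ± 0.14 (limma adjusted p = 0.500) and 0.26 ± 0.13 (limma adjusted p = 0.421). The CpG groups thus did not overlap for 5 of the 10 genes, against 19.2% of all genes tested.

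The Fosb and Btg2 values were set against the other differences between the arrays. DKO CpG 3, which carried no Y-linked signal and lay with WT CpG 3 in the title range of 20 and over, measured 11.51 for Fosb against 11.09 in WT CpG 3, and 10.49 for Btg2 against 9.74. These 2 arrays differed in cell type markers. The centred mean in DKO CpG 3 was -1.32 for macrophage and -1.53 for neutrophil markers, against 0.38 and 0.05 in WT CpG 3. With the title range as a block, the difference after CpG passed for Fosb (0.50, adjusted p = 0.0387) and for Btg2 (0.62, adjusted p = 0.0483). Among arrays with titles under 20 alone it was 0.54 for Fosb (adjusted p = 0.119) and 0.55 for Btg2 (adjusted p = 0.209), and there every DKO array carried Y-linked signal and no WT array did. With Y-linked signal as a covariate Fosb passed (0.47, adjusted p = 0.0495) and Btg2 did not (0.55, adjusted p = 0.0965). In the arrays without Y-linked signal, with 1 DKO CpG array left, the differences were 0.46 (adjusted p = 0.118) and 0.56 (adjusted p = 0.187). With neutrophil markers in the fit they were 0.53 (adjusted p = 0.250) and 0.90 (adjusted p = 0.137). With macrophage markers in the fit the differences were 0.51 for Fosb (limma adjusted p = 0.0558) and 0.63 for Btg2 (limma adjusted p = 0.0814). The distance of the 10 genes from C3ar1 and C5ar1 was not examined. Effects of DNA inherited together with a deletion and of losing the receptors therefore cannot be told apart here.

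Without stimulation none of the 10 passed between the genotypes with limma (0.00748% of all genes tested were called). Only Fosb among them had an unadjusted p under 0.05, against 619 of all genes tested. Fosb was 0.39 ± 0.12 higher in DKO DCs (limma adjusted p = 0.922), with both DKO arrays above both WT arrays. Fos and Jun did not overlap between the genotypes either, at 0.19 ± 0.14 (limma adjusted p = 0.992) and -0.19 ± 0.12 (limma adjusted p = 0.992), and 34.2% of all genes tested were free of overlap here. Averaged over stimulation none passed (0.0972% of all genes tested were called, 0.0374% higher and 0.0598% lower in DKO), and none was free of overlap (0.778% of all genes were). An unadjusted p under 0.05 was found for 3 of the 10 and for 1556 of all genes tested. Fosb was 0.44 ± 0.08 higher in DKO DCs (limma adjusted p = 0.0777) and Btg2 0.43 ± 0.12 higher (limma adjusted p = 0.223). The difference of the CpG effects passed for none of the 10 (0.00748% of all genes tested were called). None of the 10 had an unadjusted p under 0.05 for that difference, against 756 of all genes tested. Its 95% interval was -0.23 to 0.46 for Fosb and -0.14 to 0.89 for Btg2.

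**Figure D3:**
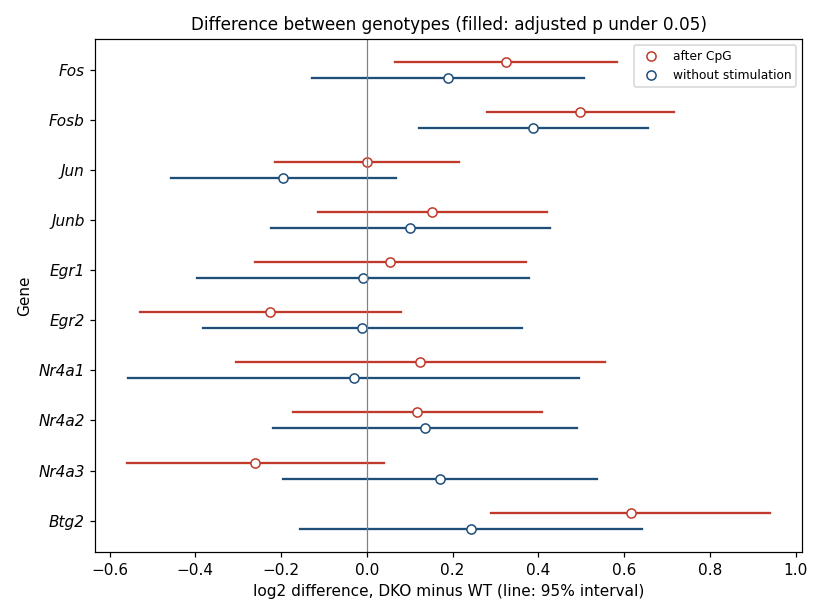
Log2 difference between genotypes (horizontal axis, DKO minus WT) of each gene after CpG and without stimulation, with its 95% interval. No point is filled, since none passed an adjusted p of 0.05. The intervals, which are not adjusted for the number of genes, lie wholly above 0 for Fos, Fosb and Btg2 after CpG. Without stimulation that of Fosb does too.

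How the genes varied within groups was described by each array's deviation from its group mean. All 10 genes were lower in WT unstimulated 1 than in WT unstimulated 2 (43.7% of all genes tested), the only 2 arrays of that group, with a median gap to the group mean of 0.13. DKO CpG 3 lay below its group mean for 8 of the 10 genes (49.3% of all genes tested) and WT CpG 3 for 9 of 10 (51.9%). The third array with a title of 20 or over, DKO unstimulated 2, lay below for 6 of 10 (59.2% of all genes), with a median deviation of -0.01. Over the 10 arrays the deviations of Nr4a1 and Nr4a2 correlated at r = 0.899 and those of Fos and Nr4a2 at r = 0.832, the 2 highest of 45 pairs. Fosb and Egr1 (r = 0.0196), Junb and Nr4a3 (r = 0.00892) and Junb and Nr4a1 (r = -0.0324) had the lowest. These are descriptions over arrays that share isolation, title range and group means.

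**Figure D4:**
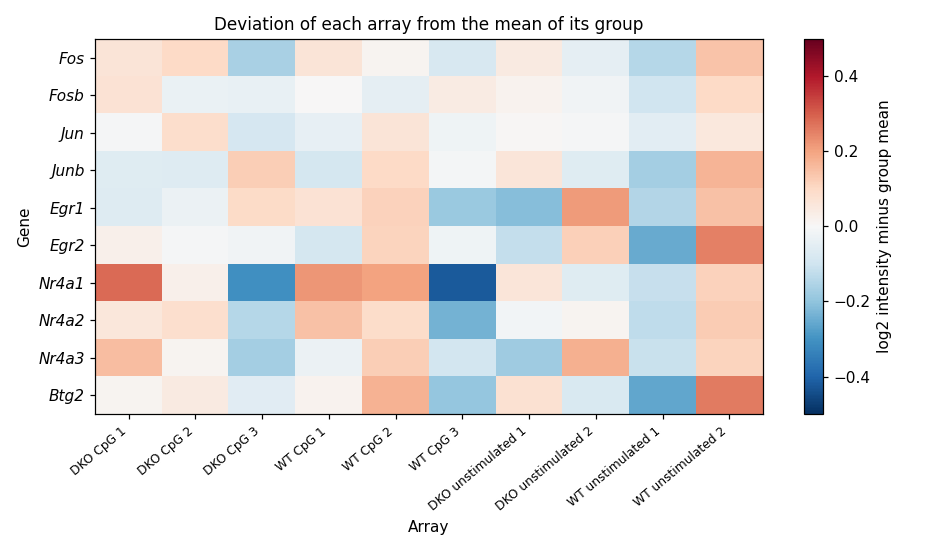
Deviation of each gene (rows) in each array (columns) from the mean of the array's group, in log2 units, with red above and blue below the mean. Nr4a1 is lowest in DKO CpG 3 and WT CpG 3, and the WT unstimulated 1 column is below the mean for all 10 genes (43.7% of all genes tested).

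The relatives and regulators of these genes did not all follow them. Of 10 tested AP-1 partners, 2 rose in DKO DCs after CpG and 3 in WT DCs, and none fell. Over all genes tested 4.54% rose in DKO DCs and 8.24% in WT DCs, and the list's median log2 change was 0.14 in DKO and 0.23 in WT. Batf, which pairs with Jun proteins and lacks a transactivation domain, measured 9.96, 9.99 and 9.44 in the DKO CpG arrays and 8.02 and 7.34 in the DKO unstimulated arrays, against 10.30, 10.39 and 10.09 in the WT CpG arrays and 8.09 and 7.61 in the WT unstimulated arrays. It rose by 2.12 ± 0.24 in DKO DCs (limma adjusted p = 0.000788) and by 2.41 ± 0.24 in WT DCs (limma adjusted p = 0.000145). Jdp2, a Jun-dimerising repressor, rose by 1.35 ± 0.14 in DKO DCs and by 1.09 ± 0.14 in WT DCs. Batf3, which also marks cDC1, changed by 0.18 ± 0.16 in DKO DCs, which did not pass (limma adjusted p = 0.551), and rose by 0.61 ± 0.16 in WT DCs (limma adjusted p = 0.0174). Batf and Jdp2 therefore rose in the samples in which Fos and Fosb fell.

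Among 4 tested Egr relatives and Nab corepressors, Egr3 fell in both genotypes and the other 3 did not pass. Egr3, a close relative of Egr2, measured 6.72, 6.73 and 7.05 in the DKO CpG arrays and 7.48 and 8.05 in the DKO unstimulated arrays, against 7.02, 6.77 and 7.00 in the WT CpG arrays and 8.02 and 7.996 in the WT unstimulated arrays. The log2 change was -0.93 ± 0.18 in DKO DCs (limma adjusted p = 0.00958) and -1.08 ± 0.18 in WT DCs (limma adjusted p = 0.00185). None of 3 tested Btg2 relatives (Btg1, Tob1 and Tob2) passed in either genotype. Over all genes tested 10.3% were called in DKO DCs and 21.6% in WT DCs, so counts in such short lists are no result about the lists.

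Of 14 tested upstream regulators, 1 rose and 2 fell in DKO DCs, and 2 rose and 2 fell in WT DCs. Over all genes tested 4.54% rose and 5.76% fell in DKO DCs, and 8.24% rose and 13.3% fell in WT DCs, and counts of 1 or 2 in so short a list are no result about the list. Elk3, a partner of serum response factor, was one that fell in DKO DCs (-0.61 ± 0.17, limma adjusted p = 0.0409) and did not pass in WT DCs (-0.25 ± 0.17, limma adjusted p = 0.335). Rps6ka5 (MSK1), the kinase that phosphorylates CREB and histone H3 at immediate-early genes, fell by 0.81 ± 0.15 in DKO DCs (limma adjusted p = 0.00776) and by 0.91 ± 0.15 in WT DCs (limma adjusted p = 0.00178). Crtc2, a coactivator of CREB, rose by 0.77 ± 0.13 in DKO DCs (limma adjusted p = 0.00640) and by 0.70 ± 0.13 in WT DCs (limma adjusted p = 0.00418). The coactivators of serum response factor split, with Mrtfa at 0.31 ± 0.13 in DKO DCs and 0.47 ± 0.13 in WT DCs and Mrtfb at -0.38 ± 0.11 and -0.58 ± 0.11. For both, the WT change passed (limma adjusted p = 0.0276 for Mrtfa and 0.00513 for Mrtfb) and the DKO change did not (0.164 and 0.0609). Serum response factor itself, Srf, changed by 0.04 ± 0.11 averaged over the genotypes (limma adjusted p = 0.824).

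Other immediate-early genes moved both ways. Of 37 tested, 8 rose and 3 fell in DKO DCs, and 10 rose and 5 fell in WT DCs, with median log2 changes of 0.10 in DKO and 0.05 in WT. Over all genes tested 4.54% rose and 5.76% fell in DKO DCs, and 8.24% rose and 13.3% fell in WT DCs, so the share that fell in WT was near that of all genes. Dusp6, the phosphatase that ends ERK signalling, fell by 1.55 ± 0.13 in DKO DCs (limma adjusted p = 0.000259) and by 2.26 ± 0.13 in WT DCs (limma adjusted p = 2.65e-05). Gadd45b, a stress-response gene that NF-kB induces, rose by 1.18 ± 0.14 in DKO DCs (limma adjusted p = 0.000980) and by 1.21 ± 0.14 in WT DCs (limma adjusted p = 0.000270). Dusp2, a nuclear MAP kinase phosphatase of leukocytes, rose by 1.13 ± 0.14 in DKO DCs and by 1.18 ± 0.14 in WT DCs, and Csrnp1, a transcriptional regulator, rose by 0.79 ± 0.15 and 0.98 ± 0.15. Ier2, Dusp1 and Zfp36, which are induced together with Fos by many stimuli, changed by 0.03 ± 0.11, 0.11 ± 0.08 and -0.01 ± 0.08 averaged over the genotypes, and none passed (limma adjusted p = 0.871, 0.348 and 0.920). These 3, Srf, Elk3 and Hspa1a were named after their values were seen.

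Heat-shock genes, which like immediate-early genes respond to handling of cells, passed in neither genotype (0 of 16 tested rose or fell in DKO or in WT DCs with limma), with median log2 changes of -0.10 in DKO and -0.28 in WT. Over all genes tested 10.3% were called in DKO DCs and 21.6% in WT DCs. Averaged over the genotypes 2 of the 16 fell, the co-chaperones Dnajb1 by 0.52 ± 0.16 (limma adjusted p = 0.0305) and Hspa4 by 0.27 ± 0.09 (limma adjusted p = 0.0416). That share was below the 18.6% of all genes tested that fell, so it is no result about heat-shock genes. Hspa1a, the inducible Hsp70, measured 13.1 to 13.6 in all 10 arrays. The part of handling in the lower immediate-early values after CpG was not tested.

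**Figure D5:**
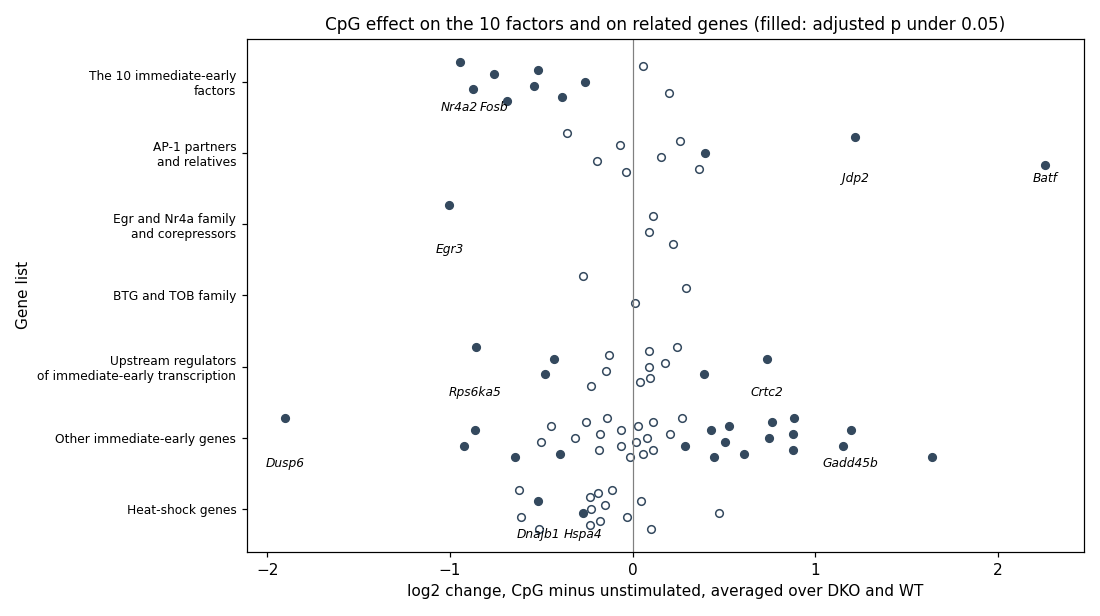
Log2 change with CpG averaged over the genotypes (horizontal axis) of the 10 factors and of the tested genes of 6 related lists, 1 point per gene, filled where the adjusted p is under 0.05. Points are spread vertically only for legibility and the 2 genes with the smallest p among the called ones of a list are named; Batf lies farthest right at 2.26 and Dusp6 farthest left at -1.90.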

How the data were processed

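Each of the 10 samples was read out on 1 array. The authors deposited 1 log2 intensity for each probe set and sample. RMA and Affymetrix Expression Console are named by the submitters' processing notes, without versions or a genome build. The labels name an amplification kit for a first batch but assign no sample to it, so the 2 ranges of title numbers stood in for it. Of 41345 probe sets, 23521 had exactly 1 gene symbol. For each of the 22180 genes the one with the highest mean over the arrays was taken. The 13371 genes above the array median in at least 2 arrays were tested.

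Group means were fitted to all 10 arrays with limma 3.58.1 in R 4.3.3 (lmFit and eBayes, 6 residual and 4.49 prior degrees of freedom), giving 7 contrasts with two-sided tests. P-values were adjusted by Benjamini-Hochberg over all genes tested, and a gene was called under 0.05. Values after ± are standard errors unless marked otherwise. The fit was also run on simulated data with independent noise for each gene. These data held no differences in title range, sex-linked signal or cell types, so the run does not bear on those. Intensities have no counts behind them, so the number of arrays limits the precision. No probe's level was set against another's.

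The 10 genes, the related lists and the tests were chosen with earlier results of these data known. Named genes are the 10, C3ar1 and C5ar1, up to 4 called genes with the smallest p in each related list, and for each of the 10 the 2 genes of most similar pattern. Promoter windows come from RefSeq (GRCm38.p6). Alternatives were other filters, normalization, variance models, array weights, probe set means, subsets of arrays, and covariates for title range, Y-linked signal, neutrophil and macrophage markers. Figures were drawn with matplotlib 3.10.9.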

Additional observations from a re-analysis of the deposited data

How the results depend on the processing

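The count of the 10 genes called was 5 for CpG in DKO DCs (2 to 4 when 1 array was left out), 6 for CpG in WT DCs (3 to 7) and 8 averaged over the genotypes (5 to 8), and 0 for each of the 4 genotype contrasts (0 to 0). No call reversed its direction under any of the alternatives run. For CpG in DKO DCs the count was 3 with array weights, 2 with titles under 20 alone and 1, Nr4a2, in the arrays without Y-linked signal. For DKO against WT after CpG it was 1 with trend and robust variances, with array weights or with Y-linked signal as a covariate (Fosb each time) and 2 with the title range as a block. Averaged over stimulation it was 1 (Fosb) with trend and robust variances or with Y-linked signal as a covariate. Over all genes, 1377 were called for CpG in DKO DCs (423 to 1909 with 1 array left out, lowest without DKO unstimulated 2, and 402 with the DKO arrays fitted alone), 2885 in WT DCs (1277 to 3226, lowest without WT unstimulated 2), 16 for DKO against WT after CpG (2 to 267, highest without DKO CpG 1, and 800 with Y-linked signal as a covariate), 1 without stimulation (1 to 2, and 407 with that covariate), 13 averaged over stimulation (1 to 71, highest without DKO CpG 1, and 987 in the arrays without Y-linked signal) and 1 for the difference of the CpG effects (0 to 1). The causes of these shifts were not tested. No paired analysis was possible because the labels give the samples no replicate numbers: those used here only name the arrays, in accession order within a group, and the block for title range is a fit for a possible batch.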

Other observations

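The genes whose values over the 10 arrays were most like those of each member were found among all genes tested, as a description: the arrays share groups, isolation and title range, and all genes tested were searched. Btg2 was closest to Atg13 (r = 0.994) and Atg2b (r = 0.981), both of which act in autophagosome formation, and Fos to Btg2 (r = 0.978) and Atg13 (r = 0.975). Fosb was closest to Galnt11 (r = 0.980) and Crot (r = 0.974), Egr2 to Raph1 (r = 0.973) and Itsn2 (r = 0.964) and Nr4a2 to Rap1gap2 (r = 0.980) and Klf4 (r = 0.977), the last a zinc-finger factor from the list of other immediate-early genes. Nr4a1 was closest to the co-chaperone Dnajb1 (r = 0.965) and to Jmy (r = 0.963). Jun was closest to Tmem143 (r = 0.973) and Pecam1 (r = 0.966), and Egr1 to the glucose transporter Slc2a3 (r = 0.954) and Napepld (r = 0.947). Junb (Peli3 at r = 0.916 and Dnajb12 at 0.906) and Nr4a3 (Cep350 at r = 0.892 and Arid5b at 0.891) had the least similar nearest genes, and these are also the members that CpG did not lower.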
